A study of Mus musculus with 16 samples.

Results

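The genes that encode ATP-dependent chromatin remodellers were followed in embryonic mouse hearts from which *Chd7*, itself one of them, had been deleted in the mesoderm. A set of 42 genes was taken by name: 8 CHD proteins other than *Chd7*, 2 SWI/SNF ATPases, 9 core and 11 accessory subunits of the BAF and PBAF complexes, 5 genes of the ISWI class, 3 ATPases of the INO80 family and 4 other SNF2 family ATPases. All 42 were measured, by 48 probe sets, among the 19937 genes named singly on the array (Affymetrix, Mouse Gene 1.0 ST). *Chd7* was kept out of the set because it was the gene deleted, and is given as a check. Single whole hearts came from C57BL/6 embryos (the study's methods name the C57Bl/6 J substrain) at E13.5 and E11.5, with 4 hearts of each genotype at each stage, 16 in all. The mutants were *Chd7* fl/fl;*Mesp1-Cre*. *Mesp1-Cre* recombines in the anterior mesoderm, which gives rise to myocardium and endocardium, so neural crest-derived cells of the heart kept *Chd7*. The controls were labelled wild type and are described in the study's methods as *Chd7*+/+;*Mesp1-Cre*. The cross given in the labels, *Chd7* fl/+;*Mesp1-Cre* with *Chd7* fl/fl, yields no *Chd7*+/+ embryo, so the exact control genotype could not be settled. Litters were not given.

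Chromatin remodellers use ATP to slide, evict or exchange nucleosomes, and so set which DNA transcription factors can reach. CHD proteins read histone tails through paired chromodomains, ISWI enzymes space nucleosomes evenly, INO80 family enzymes exchange the histone variant H2A.Z, and SWI/SNF enzymes work inside the large BAF and PBAF assemblies. BAF complexes are built from interchangeable paralogues, and the choice of paralogue differs between cell types. *Smarca4*, *Smarcd3* and *Dpf3* are the members best known for roles in the heart, and CHD7 has been found bound together with PBAF in human neural crest cells. The comparison of genotypes asks whether transcripts of the other remodellers differ in hearts where the mesoderm lacks *Chd7*.

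Each value below is the log2 expression of a gene as deposited, from its brightest probe set. A difference in log2 expression between groups is called log2 FC, and was called where the adjusted p-value from limma was under 0.05 and log2 FC was beyond 0.5 in size. Levels are set only against levels of the same gene, since probe sets differ in brightness. In a whole heart, fewer cells of a type and less RNA per cell cannot be told apart. The 8 cardiomyocyte markers, among them troponin T and the atrial and ventricular myosins, averaged between 12.66 and 13.07 in every heart. The 4 epithelial markers of lung or foregut averaged between 6.04 and 6.90, and as these are other probe sets the lists were not set against each other. Between 2.38 and 2.42, the spread (SD) of all values on an array was wider at E13.5 than at E11.5, where it lay between 2.18 and 2.26. Because of this, the stage comparisons were read on 2 scales.

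*Chd7* itself was lower in every mutant heart. At E13.5 its log2 expression was 8.98, 8.98, 8.88 and 9.07 in mutants, against 10.22, 9.88, 10.30 and 9.83 in controls. The log2 FC was -1.08 (95% interval -1.39 to -0.77), a ratio of 0.47, with an adjusted p of 0.0209 in limma. At E11.5 it was 9.26, 9.73, 9.16 and 9.68 in mutants and 10.64, 10.89, 10.64 and 10.84 in controls. There the log2 FC was -1.29 (-1.60 to -0.99), a ratio of 0.41, with an adjusted p of 0.00132. All 30 probe sets of *Chd7* were lower in mutants at both stages. The genotypes did not overlap at either stage, and the exact two-sided permutation test gave p = 0.0286 at each, which is the smallest p that 4 hearts against 4 can give.

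None of the 42 remodeller genes was called between mutants and controls. By limma, 0 of 42 passed at E11.5, where 0.251% of all genes did (0.15% lower and 0.1% higher in mutants), and 0 of 42 at E13.5, where 0.0451% of all genes did (0.0301% lower and 0.015% higher). The genotype effect averaged over both stages called 0 of 42 members against 0.416% of all genes (0.276% lower and 0.14% higher), and the difference between the effects at the 2 stages called 0 of 42 against 0% of all genes. At an unadjusted p under 0.05 there were 2 members at E11.5 (*Chd3* and *Hells*), 0 at E13.5, 1 for the averaged effect (*Chd3*) and 0 for the difference. In limma those shares over all genes were 9.34% at E11.5, 3.94% at E13.5, 8.8% for the averaged effect and 3.96% for the difference. With so few genes called in the whole array, a count of 0 among 42 was near the background, and the sizes of the effects say more.

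Those sizes were small. At E13.5 the log2 FC of the 42 members lay between -0.10 and 0.17, with a median of 0.01, and 20 were below 0 and 22 above. At E11.5 they lay between -0.23 and 0.28, with a median of 0.02, and 19 were below 0 and 23 above. The median over all genes was 0.0042 at E13.5 and 0.0039 at E11.5. The 95% interval of log2 FC lay wholly within 0.5 of 0 for 42 of 42 members at E13.5 and for 41 of 42 at E11.5, the exception being *Chd3*. Among all genes, 67.3% and 60.2% had intervals that narrow at E13.5 and E11.5, a share that depends on how precisely a gene was measured. For the averaged effect this held for 42 of 42 members and 86.4% of all genes. Log2 FC itself was within 0.25 of 0 for 42 of 42 members at E13.5, against 89.3% of all genes, and for 41 of 42 at E11.5, against 80.4%. A change of the size seen in *Chd7* was therefore outside the interval of every member at both stages. The plot of genotype effects by role shows *Chd7* alone beyond the thresholds.

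**Figure D1:**
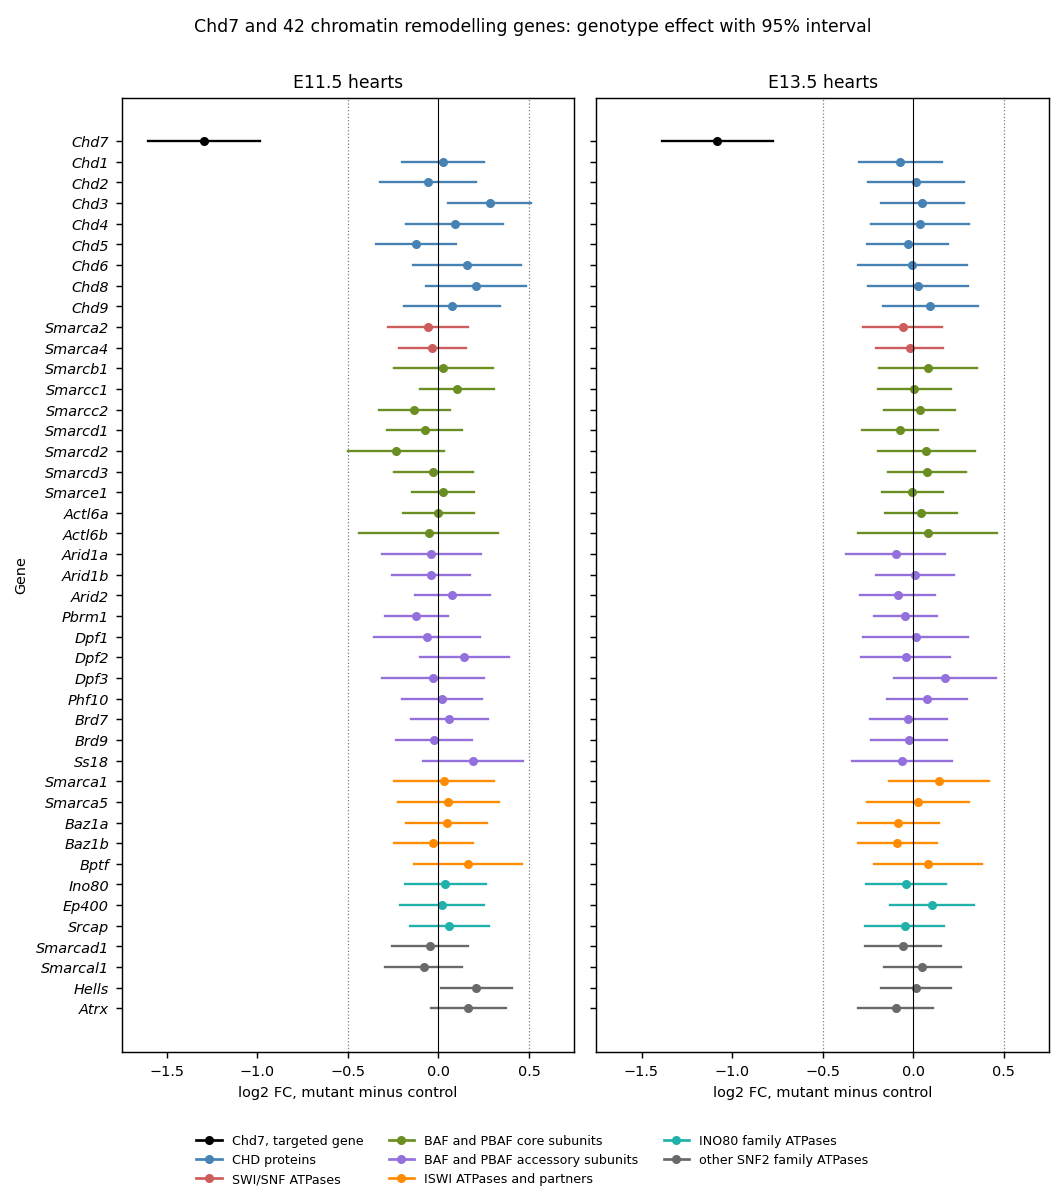
Log2 FC between mutant and control hearts for *Chd7* and the 42 members, ordered by role, at E11.5 and at E13.5; points are estimates, bars are 95% intervals from limma over 16 hearts (4 per group), and dotted lines mark 0.5 in either direction. *Chd7* sits at -1.29 and -1.08, whereas the members span -0.23 to 0.28 in the E11.5 panel and -0.10 to 0.17 in the E13.5 panel.

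Hearts within a group were not alike in every respect. The median of the members' deviations from their control means lay between -0.05 and 0.09 in every heart. A list of 10 hypoxia-responsive genes was higher in mutants for 10 of 10 genes at E11.5 and 9 of 10 at E13.5, with 0 called at either stage. Its mean level ranged from 9.41 to 10.68 in mutants against 9.27 to 9.35 in controls at E11.5. At E13.5 it ranged from 9.67 to 10.17 in mutants against 9.58 to 9.89 in controls. Of the lists of cell type markers, epicardial and macrophage genes had a log2 FC above 0 for 4 of 4 genes each at both stages. Endothelial genes had one below 0 for 4 of 5 at both stages, and cushion mesenchyme genes for 3 of 4 at both, with medians of -0.22 at E13.5 and -0.33 at E11.5. Genes of lung or foregut epithelium were above 0 for 1 of 4 at E13.5 and 4 of 4 at E11.5. Below 0 were erythroid genes for 1 of 4 at E13.5 and 4 of 4 at E11.5, glial and neural crest genes for 2 of 3 and 3 of 3, neuronal genes for 2 of 6 and 5 of 6, liver genes for 3 of 4 and 1 of 4, and cardiomyocyte genes for 5 of 8 and 4 of 8. In limma 0 genes of these lists were called between the genotypes at either stage. Without the 3 hearts that stood furthest apart from their groups (mutant E11.5 replicates 3 and 4 and control E13.5 replicate 1), 0 of 42 members were called between the genotypes. The part of these lists in the values of single members was not tested.

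Among the 8 other CHD proteins, which pair chromodomains with a SNF2 motor as CHD7 does, log2 FC lay between -0.07 and 0.10 at E13.5 and between -0.12 and 0.28 at E11.5. *Chd3*, an ATPase of the NuRD repressor complex, had the smallest p of all members at E11.5. At that stage its log2 expression was 9.53, 9.55, 9.30 and 9.65 in mutants, against 9.21, 9.24, 9.32 and 9.13 in controls. The lowest mutant heart lay below the highest control heart, so the groups overlapped. The log2 FC of *Chd3* was 0.28 (0.05 to 0.51), with an unadjusted p of 0.0191 and an adjusted p of 0.402 in limma, and it was not called. At E13.5 *Chd3* stood at 9.66, 9.47, 9.44 and 9.54 in mutants and 9.69, 9.30, 9.57 and 9.34 in controls, with a log2 FC of 0.05 (-0.18 to 0.28). The effect at E13.5 minus that at E11.5 was -0.23 (-0.56 to 0.09), so the stages were not shown to differ.

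*Chd8*, which restrains Wnt target genes and is a close relative of *Chd7*, stood at 9.34, 9.37, 9.08 and 9.31 in mutants and 8.91, 9.38, 8.87 and 9.11 in controls at E11.5, a log2 FC of 0.21 (-0.07 to 0.48). At E13.5 its values were 9.05, 9.50, 9.30 and 9.41 in mutants and 9.35, 9.12, 9.32 and 9.37 in controls, a log2 FC of 0.03 (-0.25 to 0.30). Mutants and controls overlapped at both stages. *Chd4*, another ATPase of NuRD, had a log2 FC of 0.04 at E13.5 and 0.09 at E11.5. For *Chd9* and *Chd6*, the other members of the subfamily that holds *Chd7*, log2 FC was 0.10 and -0.01 at E13.5 and 0.08 and 0.16 at E11.5. *Chd1*, which binds methylated H3K4 at active genes, *Chd2* and the largely neuronal *Chd5* lay between -0.12 and 0.03 over both stages.

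The 2 alternative motors of BAF, *Smarca4* (BRG1) and *Smarca2* (BRM), were close to equal in mutants and controls. At E13.5 *Smarca4* was 11.08, 11.08, 11.09 and 11.18 in mutants and 11.23, 11.04, 11.20 and 11.03 in controls. At E11.5 it was 11.03, 11.07, 10.95 and 11.12 in mutants and 11.01, 11.24, 11.02 and 11.05 in controls. Its log2 FC was -0.02 (-0.20 to 0.17) at E13.5 and -0.03 (-0.22 to 0.15) at E11.5. *Smarca2* reached 9.87, 9.67, 9.76 and 9.90 in mutants and 9.67, 9.85, 10.03 and 9.89 in controls at E13.5. One stage earlier it was 9.57, 9.30, 9.38 and 9.23 in mutants and 9.43, 9.34, 9.39 and 9.54 in controls. Its log2 FC was -0.06 (-0.28 to 0.16) at E13.5 and -0.06 (-0.28 to 0.16) at E11.5, and for both motors the genotypes overlapped at both stages.

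*Arid1a* and *Arid1b* encode alternative DNA-binding subunits that mark canonical BAF. In E13.5 hearts *Arid1a* was 10.89, 10.63, 10.48 and 10.72 in mutants and 10.93, 10.72, 10.72 and 10.75 in controls, and in E11.5 hearts 10.65, 10.99, 10.57 and 10.92 in mutants and 10.67, 11.11, 10.82 and 10.70 in controls. *Arid1b* was 10.00, 9.88, 9.90 and 9.99 in E13.5 mutants and 10.00, 9.86, 9.95 and 9.92 in E13.5 controls, and 9.53, 10.07, 9.86 and 9.84 in E11.5 mutants and 9.84, 9.83, 9.91 and 9.90 in E11.5 controls. The widest of their 4 genotype effects was -0.10 (-0.37 to 0.18), for *Arid1a* at E13.5, and the genotypes overlapped throughout. The subunits that mark PBAF instead, *Arid2*, *Pbrm1*, *Brd7* and *Phf10*, had log2 FC of -0.09, -0.04, -0.03 and 0.07 at E13.5. At E11.5 these were 0.08, -0.12, 0.06 and 0.02. *Pbrm1*, a bromodomain protein, had one of the 4 smallest p-values for the averaged effect. It stood at 11.77, 11.65, 11.64 and 11.68 in mutants and 11.82, 11.67, 11.74 and 11.68 in controls at E13.5, and at 11.60, 11.65, 11.58 and 11.49 in mutants and 11.63, 11.75, 11.62 and 11.81 in controls at E11.5. Its averaged log2 FC was -0.08 (-0.21 to 0.04), and the genotypes overlapped at both stages.

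The 3 *Smarcd* paralogues link BAF to transcription factors, and *Smarcd3* (BAF60C) is the form enriched in heart and somites of the early mouse embryo. *Smarcd3* was 10.35, 10.37, 10.46 and 10.44 in mutants and 10.15, 10.51, 10.25 and 10.40 in controls at E13.5, a log2 FC of 0.08 (-0.14 to 0.29). At E11.5 it was 10.24, 10.11, 9.96 and 10.32 in mutants and 10.12, 10.13, 10.23 and 10.27 in controls, a log2 FC of -0.03 (-0.25 to 0.19). Both intervals covered 0 and neither reached 0.5. *Smarcd2*, best known from granulocyte differentiation, had one of the 4 smallest p-values at E11.5. Its level was 8.37, 8.36, 8.51 and 8.24 in E11.5 mutants, against 8.75, 8.28, 8.51 and 8.86 in E11.5 controls, and 2 of the 4 controls lay within the mutant range. The log2 FC was -0.23 (-0.50 to 0.03), with an unadjusted p of 0.0812 and an adjusted p of 0.596 in limma. At E13.5 *Smarcd2* was 8.51, 8.45, 8.72 and 8.64 in mutants and 8.66, 8.56, 8.47 and 8.35 in controls, and the effect there exceeded that at E11.5 by 0.31 (-0.07 to 0.68). *Smarcd1*, the most broadly used form, was 10.13, 10.02, 10.16 and 10.06 in E13.5 mutants and 10.17, 10.24, 10.11 and 10.15 in E13.5 controls, and 10.23, 10.35, 10.22 and 10.05 in E11.5 mutants and 10.09, 10.33, 10.49 and 10.25 in E11.5 controls. Its log2 FC was -0.07 at E13.5 and -0.08 at E11.5, and the genotypes overlapped at both stages.

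*Actl6a* and *Actl6b* encode actin-related subunits that replace one another when neural progenitors leave the cell cycle. *Actl6a* was 11.58, 11.68, 11.52 and 11.56 in mutants and 11.49, 11.56, 11.60 and 11.51 in controls at E13.5, and 11.41, 11.30, 11.26 and 11.13 in mutants and 11.23, 11.10, 11.36 and 11.42 in controls at E11.5. The neuronal form *Actl6b* was 6.30, 6.58, 5.74 and 5.98 in mutants and 5.80, 6.26, 5.93 and 6.28 in controls at E13.5. At E11.5 it was 6.38, 6.26, 6.86 and 6.67 in mutants and 6.72, 6.58, 6.41 and 6.68 in controls. Mutants and controls overlapped for both subunits at each stage. The *Actl6b* probe set was dim, at percentile 40 of the mean brightness of all probe sets. Log2 FC was 0.04 and 0.08 for *Actl6a* and *Actl6b* at E13.5 and 0.00 and -0.06 at E11.5. The core scaffolds *Smarcc1* and *Smarcc2* and the tumour suppressor subunit *Smarcb1* lay between -0.13 and 0.10 over both stages. The plot of exchangeable subunits shows no pair in which one partner stood higher and the other lower in every mutant heart.

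**Figure D2:**
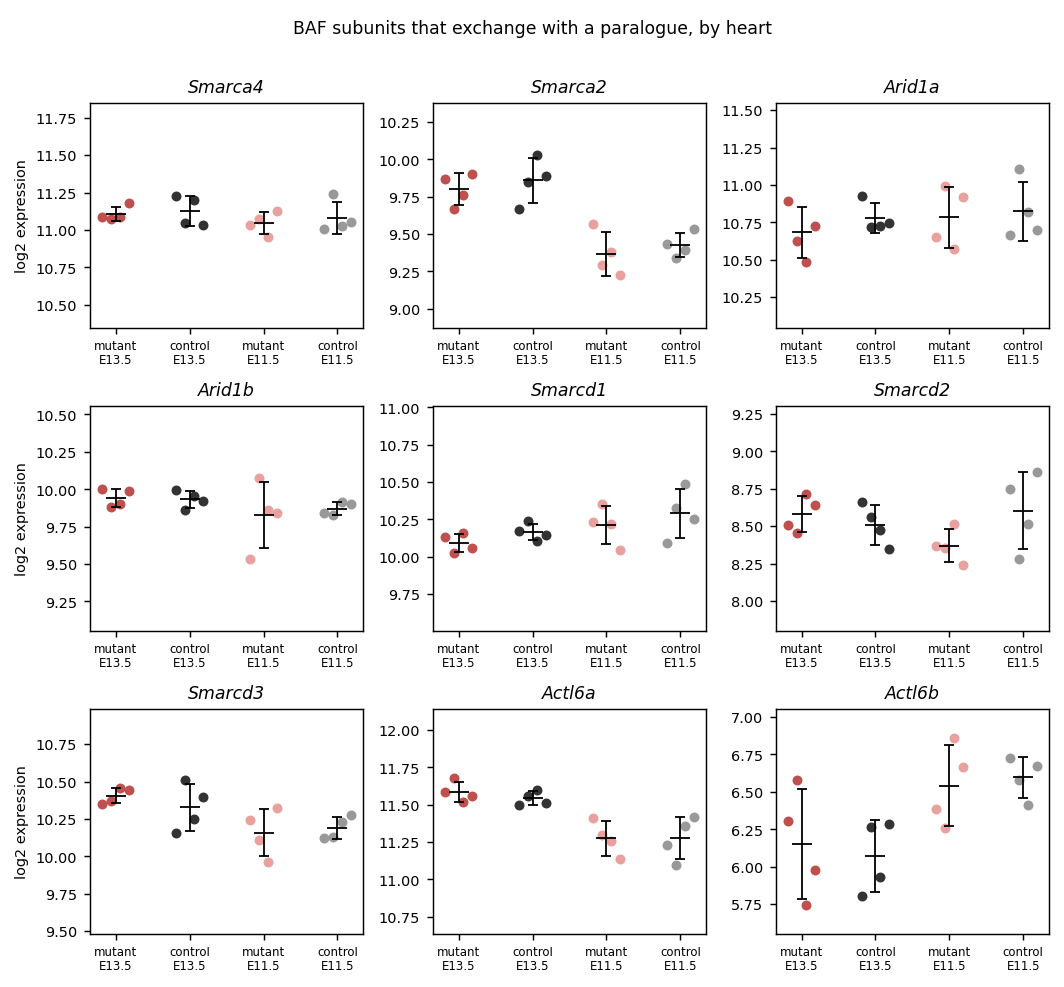
Log2 expression of 9 exchangeable BAF subunits in every heart (points) with the group mean and SD (bars, 4 hearts per group), in mutant and control hearts at E13.5 and then at E11.5. Mutant and control points overlap in every panel at each stage; for *Smarca2* the 4 mutant hearts at E13.5 span 9.67 to 9.90 and the controls 9.67 to 10.03.

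The DPF family reads acetylated and crotonylated histone H3 through paired PHD fingers, and *Dpf3* (BAF45C) is expressed in heart and somites. *Dpf3* had the smallest genotype p of all members at E13.5. Its level there was 8.80, 9.05, 9.01 and 9.21 in mutants and 8.48, 8.86, 9.04 and 9.00 in controls, which overlapped, with a log2 FC of 0.17 (-0.11 to 0.46), an unadjusted p of 0.207 and an adjusted p of 0.9999 in limma. At E11.5 it was 8.55, 8.65, 8.60 and 8.74 in mutants and 8.74, 8.41, 8.74 and 8.78 in controls, with a log2 FC of -0.03 (-0.31 to 0.25). For *Dpf1* and *Dpf2* the genotype effects were 0.01 and -0.04 at E13.5 and -0.06 and 0.14 at E11.5. *Ss18*, the subunit fused in synovial sarcoma, had a log2 FC of -0.06 at E13.5 and 0.19 at E11.5, and *Brd9*, which marks the non-canonical BAF complex, -0.02 at both.

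Of the remaining ATPases, *Hells* (LSH), which is needed for DNA methylation at repeats, was the only one of the 42 members whose genotypes did not overlap at E11.5, against 3.93% of all genes that did not. Its level was 8.64, 8.50, 8.42 and 8.51 in mutants and 8.33, 8.36, 8.35 and 8.19 in controls at that stage, so each mutant heart was above each control heart. The log2 FC was 0.21 (0.02 to 0.40), with an unadjusted p of 0.0357 and an adjusted p of 0.483 in limma. At E13.5 *Hells* was 8.88, 8.70, 8.79 and 8.75 in mutants and 8.85, 8.81, 8.83 and 8.57 in controls, a log2 FC of 0.01 (-0.18 to 0.21). The effect at E13.5 minus that at E11.5 was -0.20 (-0.47 to 0.08), which did not settle whether the stages differed. At E13.5, 0 of 42 members were free of overlap, against 4.08% of all genes.

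*Atrx* and *Smarca1* lie on the X chromosome. *Atrx*, which deposits histone H3.3 at heterochromatin, was 9.90, 9.76, 9.83 and 9.97 in mutants and 9.92, 9.90, 10.05 and 9.96 in controls at E13.5, a log2 FC of -0.10 (-0.30 to 0.11). It was 9.85, 9.72, 9.55 and 9.73 in mutants and 9.47, 9.76, 9.52 and 9.44 in controls at E11.5, a log2 FC of 0.16 (-0.04 to 0.37). The genotypes overlapped at both stages, and the difference between the stages was -0.26 (-0.55 to 0.03). *Smarca1* (SNF2L), an ISWI motor, was 9.50, 9.01, 9.30 and 9.11 in mutants and 8.76, 9.18, 9.20 and 9.21 in controls at E13.5, a log2 FC of 0.14 (-0.13 to 0.42). In E11.5 hearts it was 9.34, 9.21, 9.16 and 9.28 in mutants and 9.01, 9.34, 9.33 and 9.20 in controls, a log2 FC of 0.03 (-0.25 to 0.30). The sexes of the embryos were not in the labels, and the mean level of Y-linked genes differed among hearts. In E13.5 hearts it was 4.56, 4.41, 4.37 and 9.31 in mutants and 5.40, 4.20, 9.24 and 9.26 in controls, and in E11.5 hearts 5.20, 8.53, 8.26 and 4.63 in mutants and 8.54, 8.33, 8.56 and 8.93 in controls. At E11.5 every control lay at 8.33 or above, while mutants ranged from 4.63 to 8.53, so the level was unbalanced between the genotypes. With that level as a covariate, log2 FC was -0.08 at E13.5 and 0.18 at E11.5 for *Atrx*, and 0.14 and 0.02 for *Smarca1*.

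*Ep400*, the motor of the TIP60 complex, had the fourth smallest p at E13.5, where it stood at 9.41, 9.31, 9.31 and 9.28 in mutants and 9.31, 9.07, 9.43 and 9.10 in controls. At E11.5 it was 9.87, 9.80, 9.53 and 9.73 in mutants and 9.57, 9.71, 9.68 and 9.91 in controls. Its log2 FC was 0.10 (-0.13 to 0.33) at E13.5 and 0.02 (-0.21 to 0.25) at E11.5, and the groups overlapped at both. The INO80 family as a whole lay between -0.05 and 0.10 at E13.5 and between 0.02 and 0.06 at E11.5. The ISWI class, which holds *Smarca5* (SNF2H) and its partners *Baz1a*, *Baz1b* and *Bptf*, lay between -0.09 and 0.14 at E13.5 and between -0.03 and 0.16 at E11.5. The DNA repair helicases *Smarcad1* and *Smarcal1* lay between -0.08 and 0.05 over both stages.

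Other genes of the same complexes (NuRD, further BAF, ISWI, INO80, SRCAP and TIP60 subunits), with further SNF2 helicases, gave 62 measured genes out of 63 listed. By limma, 0 of 62 were called between genotypes at either stage. At an unadjusted p under 0.05 there were 2 of 62 at E11.5 and 0 at E13.5, fewer in proportion than the 9.34% and 3.94% of all genes given above. The 2, named here only to account for that count, were *Ino80c*, a subunit of INO80, with a log2 FC of -0.48 and an adjusted p of 0.12, and *Ing3*, a methyl-H3K4 reader of TIP60, with -0.30. The median log2 FC of the 62 was 0.0016 at E13.5 and -0.01 at E11.5.

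Between the stages, several BAF subunits were called in both genotypes, and of these *Brd9* and *Ss18* were called under every alternative run. The probe set behind the *Smarce1* call is doubtful, and *Dpf1* in mutants lay just past the threshold, as given below. A stage call required that log2 FC, E13.5 minus E11.5, pass on the deposited values and again after quantile normalisation of the 16 arrays. In mutants, 3 of 42 members were lower at E13.5 (*Smarce1*, *Dpf1* and *Ss18*) and 1 was higher (*Brd9*), where 7.28% of all genes were lower and 10.2% higher. In controls, the same 3 were lower and 2 were higher (*Dpf2* and *Brd9*), where 7.14% of all genes were lower and 9.92% higher. In both genotypes 3 members were lower and 1 was higher, against 4.16% and 7.25% of all genes. These shares of members were near the background or below it, other than the 3 of 42 lower in both genotypes, which lay above it. All of the members called were BAF subunits. None of the 20 ATPases and partners outside SWI/SNF passed on both scales. With so few calls, no difference between BAF subunits and the other members was read from this.

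*Brd9* had the smallest p of all members between stages. In mutants it was 9.40, 9.59, 9.51 and 9.57 at E13.5, against 8.57, 8.53, 8.73 and 8.53 at E11.5, a log2 FC of 0.93 (0.72 to 1.14) and a ratio of 1.90, with an adjusted p of 5.68e-06 in limma. In controls it was 9.47, 9.61, 9.63 and 9.44 at E13.5, against 8.44, 8.52, 8.76 and 8.73 at E11.5, a log2 FC of 0.93 (0.72 to 1.13), with an adjusted p of 6.17e-06. Every E13.5 heart was above every E11.5 heart. After quantile normalisation log2 FC was 0.72 in mutants and 0.74 in controls. *Ss18*, which sits in the same non-canonical complex as well as in canonical BAF, went the other way. It was 8.52, 8.57, 8.18 and 8.35 in E13.5 mutants, against 9.36, 9.32, 9.53 and 9.27 in E11.5 mutants, and fell by 0.97 on the log2 scale (-1.24 to -0.69, adjusted p = 4.85e-05 in limma). It was 8.46, 8.33, 8.57 and 8.51 in E13.5 controls, against 9.35, 9.11, 9.42 and 8.83 in E11.5 controls, and fell by 0.71 (-0.99 to -0.43, adjusted p = 0.000583 in limma). Again the stages did not overlap, and the quantile-normalised changes were -1.16 in mutants and -0.89 in controls.

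Of the 3 DPF paralogues, which occupy one position in BAF, *Dpf1* was called lower at E13.5 in both genotypes and *Dpf2* higher in controls, while *Dpf3* was not called. *Dpf1* (BAF45B), the form typical of neurons, was 7.52, 7.21, 7.07 and 7.06 in E13.5 mutants, against 7.79, 7.76, 7.60 and 7.78 in E11.5 mutants, and 7.03, 7.10, 7.08 and 7.58 in E13.5 controls, against 7.96, 7.66, 7.89 and 7.67 in E11.5 controls. Each E13.5 heart was below each E11.5 heart of its genotype. Log2 FC was -0.52 (-0.81 to -0.23) in mutants, with an adjusted p of 0.00688 in limma, and -0.60 (-0.89 to -0.31) in controls, with an adjusted p of 0.00284. The mutant value lay just past the threshold of 0.5 and fell short of it without mutant E11.5 replicate 1 (-0.50), without mutant E13.5 replicate 3 or 4 (-0.47 each), and with arrays centred on their medians (-0.47). *Dpf2* (BAF45D), the broadly used form, was 11.34, 11.43, 11.26 and 11.43 in E13.5 mutants, against 10.53, 10.73, 10.80 and 10.61 in E11.5 mutants, and 11.44, 11.45, 11.27 and 11.46 in E13.5 controls, against 10.68, 10.17, 10.66 and 10.61 in E11.5 controls. Each E13.5 heart was above each E11.5 heart. Log2 FC was 0.70 (0.45 to 0.94) in mutants and 0.88 (0.63 to 1.12) in controls. After quantile normalisation it was 0.47 in mutants, short of the threshold, and 0.64 in controls. The stage effect in mutants minus that in controls was -0.18 (-0.53 to 0.17, unadjusted p = 0.283 in limma), so a call in controls alone does not show that the genotypes differed. *Dpf3* had a stage log2 FC of 0.38 in mutants and 0.18 in controls, and was called in neither.

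The promoters of *Dpf1* and *Dpf2* are printed because *Dpf1* was called lower at E13.5 in both genotypes and its paralogue *Dpf2* higher, in controls only. Each is a window of 300 bases around the annotated start, most of it upstream, from RefSeq on GRCm38.p6. *Dpf1* lies at chr7:29303755-29304054 on the plus strand and *Dpf2* at chr19:5912822-5913121 on the minus strand. Capitals mark GC boxes (GGGCGG, or CCGCCC on the other strand) in *Dpf1* and the letters TGCGCA, with which the motif of NRF1 begins, in *Dpf2*.
Dpf1: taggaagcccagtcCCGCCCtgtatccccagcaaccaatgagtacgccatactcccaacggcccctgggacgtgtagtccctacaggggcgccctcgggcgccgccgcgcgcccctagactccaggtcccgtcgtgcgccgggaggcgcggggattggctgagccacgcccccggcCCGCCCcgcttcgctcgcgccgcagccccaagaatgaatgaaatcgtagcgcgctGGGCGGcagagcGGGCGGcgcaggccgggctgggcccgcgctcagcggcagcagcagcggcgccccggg
Dpf2: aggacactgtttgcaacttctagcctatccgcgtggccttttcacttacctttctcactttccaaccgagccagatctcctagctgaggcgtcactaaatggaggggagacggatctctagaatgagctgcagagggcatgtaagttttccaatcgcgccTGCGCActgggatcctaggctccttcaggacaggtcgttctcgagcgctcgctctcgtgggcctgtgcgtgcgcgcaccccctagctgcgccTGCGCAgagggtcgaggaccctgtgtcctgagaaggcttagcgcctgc
The *Dpf1* window held 39 CpG dinucleotides, 4 GC boxes and 0 copies of TGCGCA, and that of *Dpf2* 20 CpG dinucleotides, 0 GC boxes and 2 copies of TGCGCA. Neither held TATAAA. GC boxes, searched on both strands, were present in 91.4% of the 35 member promoters in the table and in 35.9% of all 27025 promoters, and TGCGCA in 17.1% and 8.06%. TATAAA was present in 2.86% of member promoters and 14.2% of all, and CCAAT in 34.3% and 37.9%. Member promoters held a median of 29 CpG dinucleotides and all promoters a median of 7. GGGCGG itself holds a CpG, and the shares were not compared among promoters of like CpG content. These are matches of letters and no binding was measured.

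*Smarce1* (BAF57), an HMG-box subunit of BAF and PBAF, was 11.79, 11.74, 11.74 and 11.62 in E13.5 mutants, against 12.28, 12.22, 12.37 and 12.36 in E11.5 mutants. In controls it was 11.73, 11.69, 11.81 and 11.68 at E13.5, against 12.27, 12.36, 12.30 and 12.20 at E11.5. The stages did not overlap. Log2 FC was -0.58 (-0.75 to -0.41) in mutants, with an adjusted p of 5.38e-05 in limma, and -0.55 (-0.72 to -0.38) in controls, with an adjusted p of 8.56e-05. The probe set behind these values is doubtful. Probe sets of this array are numbered along the chromosomes, and all 20 numbered nearest to it named genes of chromosome 5, whereas *Smarce1* lies on chromosome 11. The one *Smarce1* probe set whose 20 neighbours lay on chromosome 11 gave -0.35 (-0.53 to -0.17) in mutants and -0.43 (-0.60 to -0.25) in controls, lower at E13.5 but short of 0.5. The remaining one gave -0.27 and -0.21, and its neighbours lay on chromosome 8. The locus read by the brightest probe set was not settled from the files. With the median of the probe sets of each gene, *Smarce1* had a log2 FC of -0.30 in both genotypes and was not called.

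The plot of stage changes by heart sets these members beside *Chd3* and *Hells*, which were not called between stages. *Hells* stood at 0.26 in mutants and 0.46 in controls, and *Chd3* at 0.02 and 0.25.

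**Figure D3:**
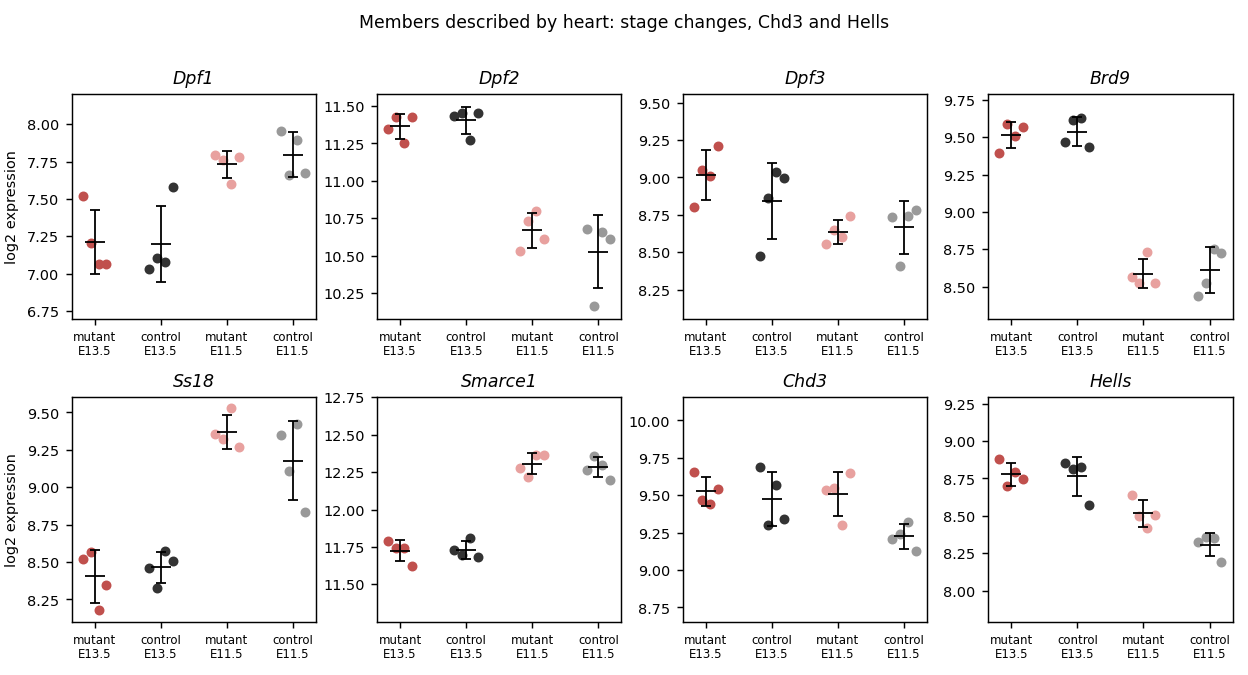
Log2 expression of 8 members in every heart (points) with the group mean and SD (bars, 4 hearts per group), in mutant and control hearts at E13.5 and then at E11.5. *Brd9* and *Dpf2* stand higher at E13.5 and *Ss18*, *Smarce1* and *Dpf1* lower, in both genotypes, though *Dpf2* was called in controls only; *Brd9* spans 9.40 to 9.59 in E13.5 mutants and 8.53 to 8.73 in E11.5 mutants.

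Of the 42 members, 3 had more than one probe set besides *Smarce1*. The brightest probe set of *Chd6* changed with stage by 0.08 in mutants and 0.24 in controls. A dimmer one was 7.77, 7.60, 7.76 and 7.81 in E13.5 mutants, against 6.76, 6.16, 6.12 and 5.41 in E11.5 mutants, a log2 FC of 1.62 (1.00 to 2.24). In controls that probe set was 7.62, 7.33, 7.50 and 7.77 at E13.5, against 5.37, 6.00, 6.97 and 6.41 at E11.5, a log2 FC of 1.37 (0.75 to 1.98). Of the 20 probe sets numbered nearest to it, 0 named genes of chromosome 2, where *Chd6* lies, and 17 named genes of chromosome 8, so *Chd6* was not read as changed. For *Pbrm1* and *Bptf* the neighbours of every probe set lay on the gene's own chromosome. Stage log2 FC lay between -0.39 and 0.13 in mutants and between -0.36 and 0.27 in controls for the 3 probe sets of *Pbrm1*, and between -0.02 and 0.24 in mutants and between -0.05 and 0.31 in controls for the 2 of *Bptf*.

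**Figure D4:**
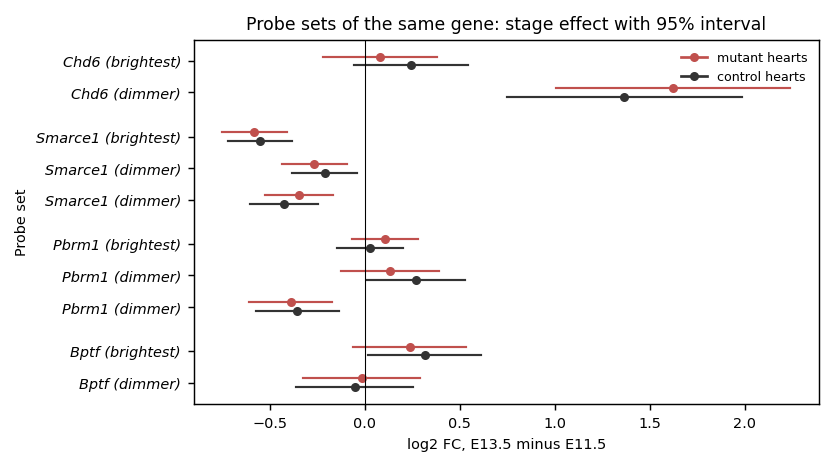
Stage log2 FC (E13.5 minus E11.5) with 95% intervals for each probe set of *Chd6*, *Smarce1*, *Pbrm1* and *Bptf*, in mutant and in control hearts. The dimmer *Chd6* probe set stands at 1.62 and 1.37, apart from the brightest at 0.08 and 0.24, while all 3 *Smarce1* probe sets lie below 0.

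How many members passed in each direction depended on the scale. On the deposited values alone, 3 of 42 members were lower and 7 higher at E13.5 in mutants, where 12.8% of all genes were lower and 16.8% higher. In controls 4 were lower and 6 higher, against 12.3% and 16.5% of all genes. After quantile normalisation, 6 were lower and 1 higher in mutants, against 9.73% and 11.6% of all genes, and 4 lower and 2 higher in controls, against 9.56% and 11.4%. These shares of members were near the background or below it, other than the 6 of 42 lower in mutants after quantile normalisation, which lay above it. The members' median log2 FC was 0.10 in both genotypes on the deposited values, and -0.12 in mutants and -0.14 in controls after quantile normalisation, while the median of all genes lay at 0.04 and then at 0.01. Members that passed only on the deposited values in both genotypes were *Phf10*, *Baz1b*, *Ino80* and *Smarcal1*. *Phf10* (BAF45A), the PHD-finger subunit of PBAF, stood at 0.57 in mutants and 0.52 in controls, and *Smarcal1*, which rewinds stalled replication forks, at 0.69 and 0.56. *Baz1b*, the Williams syndrome partner of *Smarca5*, stood at 0.55 and 0.61, and *Ino80* at 0.50 and 0.58. After quantile normalisation alone *Ep400* passed as lower in both genotypes, at -0.63 in mutants and -0.70 in controls. It was lower on the deposited values too, at -0.41 in mutants (adjusted p = 0.0076 in limma) and -0.49 in controls (adjusted p = 0.0024). Those values fell short of 0.5 in size, and in controls *Ep400* was called under 9 of 28 alternatives. With no fold threshold, *Phf10*, *Baz1b*, *Ino80* and *Smarcal1* passed as higher and *Ep400* as lower in both genotypes. That setting still needed an adjusted p under 0.05 in limma and the same direction on both scales. These members thus kept their direction across the scales and fell short only in size. None was called a stage change, since none was beyond 0.5 in size on both scales.

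**Figure D5:**
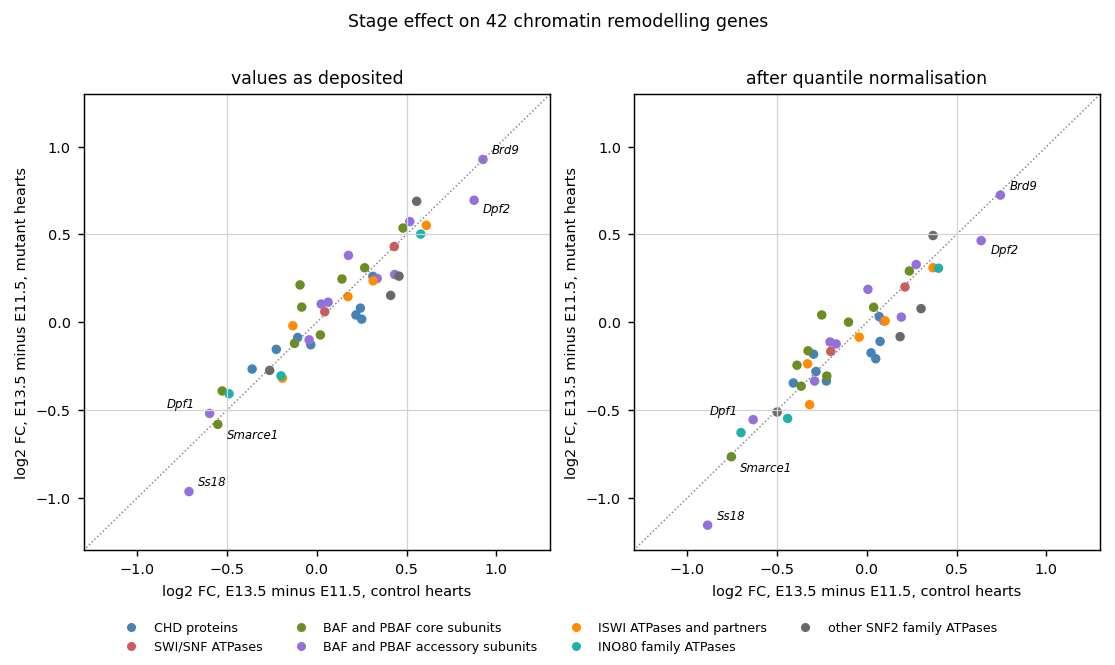
Stage log2 FC (E13.5 minus E11.5) of the 42 members in mutant hearts (vertical) against control hearts (horizontal), on the deposited values and after quantile normalisation; both stages of each genotype are independent hearts. *Brd9* stands at 0.93 in mutants and 0.93 in controls and *Ss18* at -0.97 and -0.71 on the deposited values, and the members' medians lie at 0.10 in both genotypes on the deposited values and at -0.12 in mutants and -0.14 in controls after quantile normalisation.

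*Smarca2* was higher at E13.5 on the deposited values, by 0.43 in mutants and 0.43 in controls, short of the threshold, and by 0.20 and 0.21 after quantile normalisation. The sign of *Smarca4* turned between the scales, with 0.06 and 0.04 on the deposited values against -0.17 and -0.20 after quantile normalisation, so no direction was given to it. *Actl6b* stood at -0.39 in mutants and -0.53 in controls. The 6 neuronal markers had a mean level between 6.53 and 6.90 in E13.5 mutants and 6.58 and 6.80 in E13.5 controls. At E11.5 that level lay between 6.63 and 6.92 in mutants and between 6.81 and 7.14 in controls. Of the 6, *Th* was called lower at E13.5 (-0.64) and *Stmn2* higher (0.91) in mutants. In controls *Tubb3* was called lower (-1.01) and 0 were called higher. Macrophage markers were called higher at E13.5 for 3 of 4 genes in both genotypes, with a mean level of 8.38 to 8.86 in E13.5 mutants, against 7.17 to 8.20 in E11.5 mutants, and 8.14 to 8.52 in E13.5 controls, against 7.32 to 7.59 in E11.5 controls. Their part in the members' stage values was not tested.

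Among the 62 other genes of the complexes and further SNF2 helicases, stage calls were again fewer in proportion than among all genes. In mutants *Rsf1*, the histone chaperone partner of *Smarca5*, was lower at E13.5 with a log2 FC of -0.55, and *Mta2* of NuRD, *Mbtd1* of TIP60 and *Chrac1* of the CHRAC complex were higher by 0.76, 1.03 and 1.34. In controls *Znhit1* of SRCAP had a log2 FC of -0.57, and *Mta2*, *Mbtd1*, *Chrac1* and the INO80 subunit *Actr5* were higher by 0.93, 0.92, 1.23 and 0.56. That made 1 lower and 3 higher of 62 in mutants, against 7.28% and 10.2% of all genes, and 1 lower and 4 higher in controls, against 7.14% and 9.92%.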

How the data were processed

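Total RNA from single hearts was hybridised to Affymetrix Mouse Gene 1.0 ST arrays. Per the study's methods the authors normalised the arrays by RMA in the affy package and tested them in limma, and the versions are not given in the sources used here. The deposited values are log2 expression, 34760 probe sets by 16 hearts, between 2.74 and 14.56. The sources do not say whether both stages were normalised in one run. Hearts were grouped by the genotype and stage in the labels.

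The 16 hearts entered a single fit in limma (limma 3.58.1, R 4.3.3), in which each of the 4 groups had its own mean and 12 degrees of freedom remained. P-values were adjusted over all 34760 probe sets by Benjamini-Hochberg, and intervals are 95% from the moderated fit. A gene was read from its brightest probe set among the 21640 that name a single gene (1321 name several and 11799 none). Calls needed a log2 FC over 0.5 in size as well as an adjusted p under 0.05, on both scales for stage. The difference of effects required the p alone. The p-values weigh a difference between groups against the spread between single hearts within groups, and the number of arrays limits their precision. That spread need not cover differences between groups in litter, which was not given, or in sex, which was not labelled. Figures used matplotlib 3.10.9.

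The members, gene lists and alternatives were chosen with earlier results of these data known. Values per heart were given for members called in a genotype comparison, the 4 members with the smallest genotype p at each stage and for the averaged effect, up to 6 per direction called between stages in both genotypes, the exchangeable BAF subunits whatever their values, and *Chd7*. Alternatives covered normalisation, the prior, array weights, dim probe sets, the choice of probe set, the fold threshold, the Y-linked level as a covariate, each stage alone, a replicate block, leaving out each heart, and leaving out 3 hearts together.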

Additional observations from a re-analysis of the deposited data

Results flagged for a closer look

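Among the 22 members with values per heart, 88 groups of 4 hearts were searched for a heart standing alone, and 8 groups had one. Chance gives about 1 in 20. Control E13.5 replicate 1 stood at 10.93 for *Arid1a*, where the other 3 hearts lay between 10.72 and 10.75, and at 8.76 for *Smarca1*, where they lay between 9.18 and 9.21. Control E13.5 replicate 5 stood at 7.58 for *Dpf1*, with the others between 7.03 and 7.10, and at 8.57 for *Hells*, with the others between 8.81 and 8.85. Control E13.5 replicate 4 stood at 11.27 for *Dpf2*, below 11.44 to 11.46 in the others. Control E11.5 replicate 2 was low for *Dpf2*, at 10.17 against 10.61 to 10.68 in the others, and for *Dpf3*, at 8.41 against 8.74 to 8.78. Mutant E13.5 replicate 4 stood at 11.18 for *Smarca4*, above 11.08 to 11.09 in the others.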

How the results depend on the processing

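No alternative called a member between the genotypes: all 228 counts, over the genotype comparisons and both directions, were 0. Of 2054 values of single members under 30 alternatives, 1962 kept their direction and their side of the threshold, 66 turned sign, 20 newly passed and 6 no longer passed. In mutants, members lower at E13.5 numbered 3, and 6 with quantile or loess normalisation and 7 with no fold threshold, while members higher numbered 1, and 2 with the median of the probe sets (adding *Chd6*), 2 with the Y-linked covariate, 6 with no fold threshold, 2 without the 3 hearts, 7 on the deposited values alone, and 1 to 3 on leaving out single hearts. In controls, members lower numbered 3, and 6 with no fold threshold. They numbered 4, adding *Ep400*, with quantile or loess normalisation, with array weights and without the 3 hearts. Members higher in controls numbered 2, and 7 with no fold threshold and 6 on the deposited values alone, an alternative chosen after seeing the data. On leaving out single hearts, members lower numbered 2 to 3 in mutants and 3 to 4 in controls. *Dpf1* and *Smarce1* account for the 6 lost calls. Deviations of hearts with the same replicate number correlated between -0.06 and 0.01, so no shared deviation was seen. That does not settle whether hearts of the same number shared a litter or were processed together. The replicate block left 0 members called between the genotypes. For mutant minus control at E11.5 the sign turned with the Y-linked covariate for *Dpf3* (0.053), *Arid1b* (0.0078) and *Actl6a* (0.0061), with the median of the probe sets for *Pbrm1* (0.039), with 3 hearts left out for *Smarca2* (0.0056), *Smarcd1* (0.0040) and *Actl6a* (0.080) and with array weights for *Arid1a* (0.014). On leaving out single hearts the same comparison gave -0.12 to 0.0086 for *Dpf3*, -0.040 to 0.067 for *Smarca1*, -0.029 to 0.088 for *Ep400*, -0.060 to 0.018 for *Smarca4*, -0.084 to 0.038 for *Smarcd3*, -0.11 to 0.055 for *Arid1a*, -0.12 to 0.056 for *Arid1b*, -0.059 to 0.047 for *Actl6a* and -0.16 to 0.040 for *Actl6b*. For mutant minus control at E13.5 the sign turned with the replicate block for *Hells* (-0.054), *Smarcd2* (-0.027) and *Dpf2* (0.014), with the Y-linked covariate for *Hells* (-0.016), with the median of the probe sets for *Pbrm1* (0.0013), with array weights for *Smarca4* (0.0059) and *Dpf1* (-0.014) and with 3 hearts left out for *Smarca4* (0.016), *Actl6b* (-0.0084) and *Dpf1* (-0.040). On leaving out single hearts the same comparison gave -0.0067 to 0.12 for *Chd3*, -0.050 to 0.043 for *Hells*, -0.034 to 0.12 for *Chd8*, -0.050 to 0.016 for *Smarca4*, -0.015 to 0.030 for *Arid1b*, -0.062 to 0.22 for *Actl6b* and -0.087 to 0.14 for *Dpf1*. For E13.5 minus E11.5 in mutants the sign turned with loess for *Smarcd3* (-0.0016), *Smarca4* (-0.18) and *Arid1b* (-0.14) and with quantile normalisation for *Smarca4* (-0.17) and *Arid1b* (-0.12). For E13.5 minus E11.5 in controls the sign turned with loess for *Dpf3* (-0.026), *Smarcd3* (-0.11), *Smarca4* (-0.20) and *Arid1b* (-0.18), with quantile normalisation for *Smarcd3* (-0.10), *Smarca4* (-0.20) and *Arid1b* (-0.17) and with centred arrays for *Arid1a* (0.0018). On leaving out single hearts the same comparison gave -0.094 to 0.052 for *Arid1a*. Each of those values was below 0.25 in size and none was called. The cause was not tested. Not every comparison was run under each alternative: the block and the separate stages were run for the genotype comparisons only.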

Other observations

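Some probe sets named *Smarca5* together with its pseudogene *Smarca5-ps* and *Gm13034*, and were left out of the values above because they cannot be given to one gene. There were 3 of them. At E11.5 their log2 FC between mutants and controls was -0.57 (unadjusted p = 0.00902 and adjusted p = 0.316 in limma), -0.01 and -0.11, while the probe set that names *Smarca5* alone gave 0.05. At E13.5 they lay between -0.30 and 0.06. Between the stages 1 of the 3 was called higher at E13.5 in both genotypes (1.31 in mutants and 0.69 in controls) and 1 was called lower in mutants only. A further 8 probe sets named *Ino80* together with *Rpl35a*, a ribosomal protein gene, and were left out for the same reason. Their log2 FC between mutants and controls lay between -0.23 and 0.25 at E13.5 and between -0.85 and 0.16 at E11.5, and 0 were called. The lowest, -0.85 at E11.5, had an unadjusted p of 0.0246 and an adjusted p of 0.437 in limma. Between the stages 1 of the 8 was called higher at E13.5 in mutants and 1 lower in controls.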
